A study of Mus musculus with 32 samples.

Results

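The kainate receptor genes Grik1, Grik2, Grik3, Grik4 and Grik5, and the auxiliary subunit genes Neto1 and Neto2, were described in mouse cerebral cortex. They were chosen by symbol, as 7 of the 55401 genes of the count table, and all 7 were among the 16042 genes tested. Ribosomal RNA-depleted total RNA from cortex at 6 weeks of age was sequenced from 32 mice. In all, 10 mice were Ts65Dn;Df(17)2, 10 were Dp(16)1/Df(16)8 and 12 were +/+, with equal numbers labelled female and male in each genotype. Ts65Dn carries a segment of mouse chromosome 16 on an extra, freely segregating chromosome, and Df(17)2 is a deficiency on chromosome 17. Dp(16)1 is a duplication within chromosome 16, and Df(16)8 is a deficiency on the other chromosome 16. Grik1 lies in the segment that both aneuploid genotypes carry in 3 copies, against 2 copies in +/+ mice. The other 6 genes lie on other chromosomes and have 2 copies in every genotype. Strain background is not given in the labels, and each library is 1 animal by its label.

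Kainate receptors are glutamate-gated cation channels built as tetramers. The products of Grik1, Grik2 and Grik3 (GluK1, GluK2 and GluK3) form channels by themselves or with one another. The products of Grik4 and Grik5 (GluK4 and GluK5) bind glutamate with high affinity and reach the surface as working channels only together with one of the others. Neto1 and Neto2 are single-pass membrane proteins that bind the receptors and change their kinetics. In cortex and hippocampus, kainate receptors modulate transmitter release and carry slow synaptic currents, and GluK1 is best known from inhibitory interneurons.

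The 5 receptor genes share the stretch of the pore loop that holds the Q/R site, a glutamine codon that RNA editing can change to an arginine codon in Grik1 and Grik2 but not in Grik3, Grik4 or Grik5. The genomic form of this stretch is shown because it is a part of the channel that all 5 subunits share, and because it lets a reader see how far the genes differ at the base level within it. Each line holds 60 coding bases, 5′ to 3′, from the GENCODE M21 transcripts of GRCm38, and the capitals mark the Q/R codon.
Grik1: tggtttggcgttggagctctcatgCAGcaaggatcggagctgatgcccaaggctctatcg
Grik2: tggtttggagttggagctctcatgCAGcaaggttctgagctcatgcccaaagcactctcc
Grik3: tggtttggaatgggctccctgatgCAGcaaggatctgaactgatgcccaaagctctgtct
Grik4: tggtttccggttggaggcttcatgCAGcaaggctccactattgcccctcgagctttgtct
Grik5: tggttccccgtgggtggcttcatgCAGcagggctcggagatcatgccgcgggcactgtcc

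In GRCm38 these stretches run over chr16:87936087-87940568 on the minus strand for Grik1, chr10:49240768-49244355 on the minus strand for Grik2 and chr4:125691183-125693990 on the plus strand for Grik3, and each of these 3 is interrupted by an intron. They lie within 1 coding exon for Grik4, at chr9:42547590-42547649, and for Grik5, at chr7:25022464-25022523, both on the minus strand. The glutamine is residue 636 of the 949 of GluK1, 621 of 908 of GluK2, 623 of 919 of GluK3, 606 of 956 of GluK4 and 605 of 979 of GluK5 in the transcripts used. Counts per gene do not resolve editing.

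The coding sequences, compared over their aligned bases with gaps and unaligned ends left out, fell into the 2 known classes of subunits. Grik1 was 73.5% identical to Grik2 and 72.4% to Grik3, and Grik2 was 73.4% identical to Grik3. Grik4 was 73.3% identical to Grik5. Pairs across the classes were 62.8% to 66.8% identical, and Neto1 was 70.2% identical to Neto2. The longest run of identical bases shared by the transcripts of any pair was 46 bases, between Grik2 and Grik3, and for Grik1 it was 35 bases, shared with Grik2. The strand setting of the authors' counting is not given in the sources used here, and an antisense gene shares 219 exon bases with Neto1. That antisense gene, AC113599.1, had 1 count in all 32 libraries together, against 58521 counts for Neto1. Gm24420 shares 59 exon bases with Grik4 on the same strand, and Mir8109 shares 20 with Neto2 on the opposite strand, each with 0 counts. These counts do not show how reads in the shared bases were assigned.

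Library totals ran from 5795479 to 11189548 counts, with medians of 8213596 in Ts65Dn;Df(17)2 mice, 7753842.5 in Dp(16)1/Df(16)8 and 7547437.5 in +/+ mice. In the fit over all tested genes, 3.97% of genes passed the threshold in Ts65Dn;Df(17)2 against +/+ mice, 0.573% in Dp(16)1/Df(16)8 against +/+ mice and 0.0499% between the aneuploid genotypes. The first pair of comparisons share the same 12 +/+ libraries. The library labelled female Dp(16)1/Df(16)8 replicate 2 had 14 counts of Xist and 696 of Ddx3y, while the other 15 libraries labelled female had 9990 to 17691 and 0 to 1, so that its sex label goes against its counts. Libraries also differed in transcripts of striatal projection neurons, a cell type of the striatum under the cortex. All 15 markers of this type were detected, Sh3rf2 being at 0 in 1 library and the others above 0 throughout. Their summed level was 1087 to 3875 CPM, the counts of a gene per 1000000 TMM-normalised counts of its library, in Ts65Dn;Df(17)2, 494.6 to 4238 in Dp(16)1/Df(16)8 and 342.9 to 4370 in +/+ mice. The mean of their log2 CPM is called the striatal score. In bulk tissue, fewer cells of a type and less RNA per cell cannot be told apart.

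Per base of exon, the family was led by Grik5 and closed by Grik1 and Grik4. Levels between genes are given as RPKM, the CPM of a gene divided by its exon length in kilobases. Grik5 had a median of 40.6 RPKM over 32 libraries, with a range of 33.9 to 49.8, and stood above Neto1 in all 32. Neto1 had a median of 27.8 RPKM (22.7 to 40.2) and stood above Neto2 in 31 libraries. Neto2 had 23.1 RPKM (14.1 to 34.5) and stood above Grik3 in 27 libraries. These neighbours in the order were separated in most single libraries although their ranges overlap.

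Grik3 had a median of 19.3 RPKM (16.9 to 22.2), which was above Grik2 in 31 libraries. Grik2 had 14.1 RPKM (8.79 to 19.2) and was above Grik1 in all 32. Grik1 had 4.94 RPKM (2.61 to 7.37) and Grik4 had 4.07 RPKM (3.13 to 5.24). The order of the last pair depended on genotype: Grik1 was above Grik4 in 10 of 10 Ts65Dn;Df(17)2 libraries, in 9 of 10 Dp(16)1/Df(16)8 libraries and in 3 of 12 +/+ libraries. For scale, the AMPA receptor gene Gria1 had a median of 90.8 RPKM and the NMDA receptor gene Grin1 had 43.1 RPKM.

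**Figure D1:**
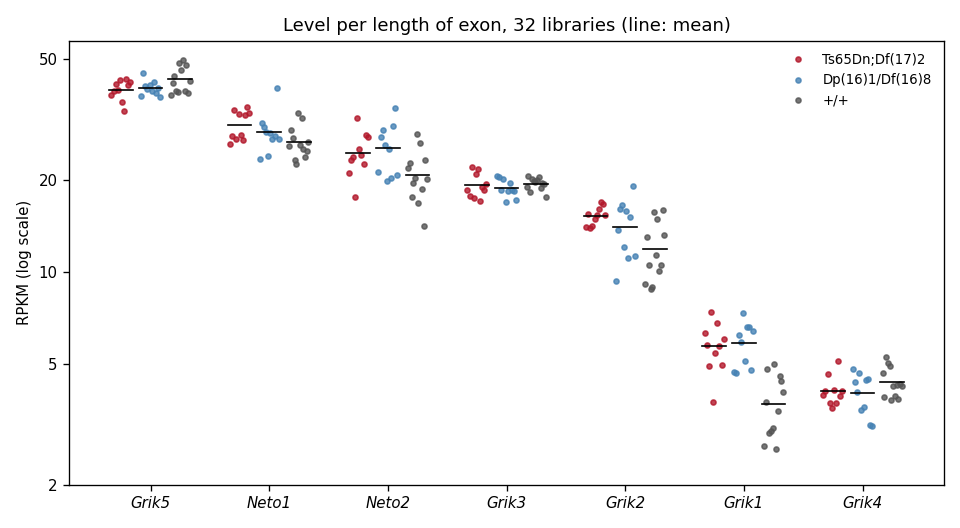
RPKM (log axis) of each gene in each library, ordered by median, with Ts65Dn;Df(17)2 (n = 10), Dp(16)1/Df(16)8 (n = 10) and +/+ (n = 12) libraries as points and group means as lines. Grik5 is highest with a median of 40.6 RPKM, and Grik1 and Grik4 overlap at the low end, with Grik1 of +/+ libraries below the Grik1 of most aneuploid libraries.

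Grik1 was higher in both aneuploid genotypes, by about the ratio of its copy numbers. Grik1 (ENSMUSG00000022935.16) spans chr16:87895900-88290265 on the minus strand. It had 25.2 CPM at lowest, 38.4 at the median and 49.5 at highest in Ts65Dn;Df(17)2, and 31.3, 40.6 and 49.4 CPM in Dp(16)1/Df(16)8. In +/+ mice it had 17.5, 24.2 and 33.6 CPM. All 10 libraries of each aneuploid genotype lay above the +/+ mean and 7 of each lay above the highest +/+ library, so the groups overlapped at their edges. These levels rest on 223 to 477 counts per library in Ts65Dn;Df(17)2, 199 to 400 in Dp(16)1/Df(16)8 and 111 to 250 in +/+ mice.

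The mean level of Grik1 was 38.3 ± 6.92 CPM in Ts65Dn;Df(17)2 and 24.8 ± 5.71 CPM in +/+ mice (SD, n = 10 and 12), a fold of 1.55 with a 95% interval of 1.31 to 1.82. The edgeR quasi-likelihood test with Benjamini-Hochberg adjustment gave an adjusted p of 0.00137. In Dp(16)1/Df(16)8 the mean was 39.1 ± 6.45 CPM (SD, n = 10), a fold of 1.58 over +/+ mice (1.34 to 1.86) with an adjusted p of 0.000833 by the same edgeR test. The copy ratio of 1.5 lies inside both intervals. Between Ts65Dn;Df(17)2 and Dp(16)1/Df(16)8 the fold was 0.978, with an interval of 0.826 to 1.16.

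The fold of Grik1 lay within the middle range of its neighbours on chromosome 16. The 77 tested genes between 84717576 and 97962622 on chromosome 16 had a median fold of 1.5 in Ts65Dn;Df(17)2 (quartiles 1.43 and 1.62) and 1.54 in Dp(16)1/Df(16)8 (quartiles 1.43 and 1.62), and 45 of the 77 lay below Grik1 in each. On one side the nearest tested genes were the long noncoding transcript 2810407A14Rik and the transcription factor gene Bach1. Bach1 was 1.62-fold and 1.58-fold higher in Ts65Dn;Df(17)2 and Dp(16)1/Df(16)8 than in +/+ mice, and 2810407A14Rik, at a median of 1.2 CPM, had folds of 1.64 and 1.86 that did not pass the test. On the other side, the Rac exchange factor gene Tiam1 was 1.71-fold and 1.75-fold higher, and Sod1, a superoxide dismutase gene, 1.54-fold and 1.6-fold higher.

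Grik1 varied between animals of 1 genotype more than Grik3 did, and about as much as Neto2. The coefficient of variation of its CPM was 18.1% in Ts65Dn;Df(17)2 mice, 16.5% in Dp(16)1/Df(16)8 and 23% in +/+ mice, against 9.32%, 6.97% and 4.67% for Grik3. That of Neto2 was 16.3%, 19.3% and 19.5% in the same order. Grik1 rests on 8270 counts in all, against 42471 for Grik3. Grik4 rests on fewer still, 6086, and its coefficient of variation was 11.2%, 15.4% and 11.4% in the same order. The 95% interval of the fold in Ts65Dn;Df(17)2 was 1.31 to 1.82 for Grik1. That of Bach1, a gene with a median of 32.45 CPM, was narrower, at 1.51 to 1.74. The source of the spread of Grik1 was not tested.

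The titles carry animal numbers, which were cut here into 7 blocks of neighbouring numbers. The cuts follow no fixed gap: 32346 and 32350 were put in different blocks, while wider gaps lie inside other blocks. By these cuts, Ts65Dn;Df(17)2 and Dp(16)1/Df(16)8 mice never share a block. Joining the blocks on either side of 32346 and 32350 would put both genotypes in 1 block. The labels do not say what the numbers stand for. On block means, Grik1 was higher in the aneuploid mice in each of the 6 blocks that also held +/+ mice. It averaged 41.4 CPM in 3 Ts65Dn;Df(17)2 mice against 25.1 CPM in 3 +/+ mice numbered 32350 to 32359. Among those numbered 32368 to 32373 it averaged 36.8 CPM in 5 Ts65Dn;Df(17)2 mice, against 33.6 CPM in the single +/+ mouse. The lowest of these 5 mice had 33.1 CPM, below that +/+ mouse. The block of 32251 and 32252 held 1 Dp(16)1/Df(16)8 mouse at 44.3 CPM and 1 +/+ mouse at 30.6 CPM. With the block as a term the log2 fold change of Grik1 in Ts65Dn;Df(17)2 against +/+ mice was 0.479 ± 0.172 (SE), with an adjusted p of 0.145 by the edgeR test, in a fit in which 1.0% of all genes passed. The same term left Grik1 at 0.731 ± 0.129 in Dp(16)1/Df(16)8, with an adjusted p of 0.00167.

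**Figure D2:**
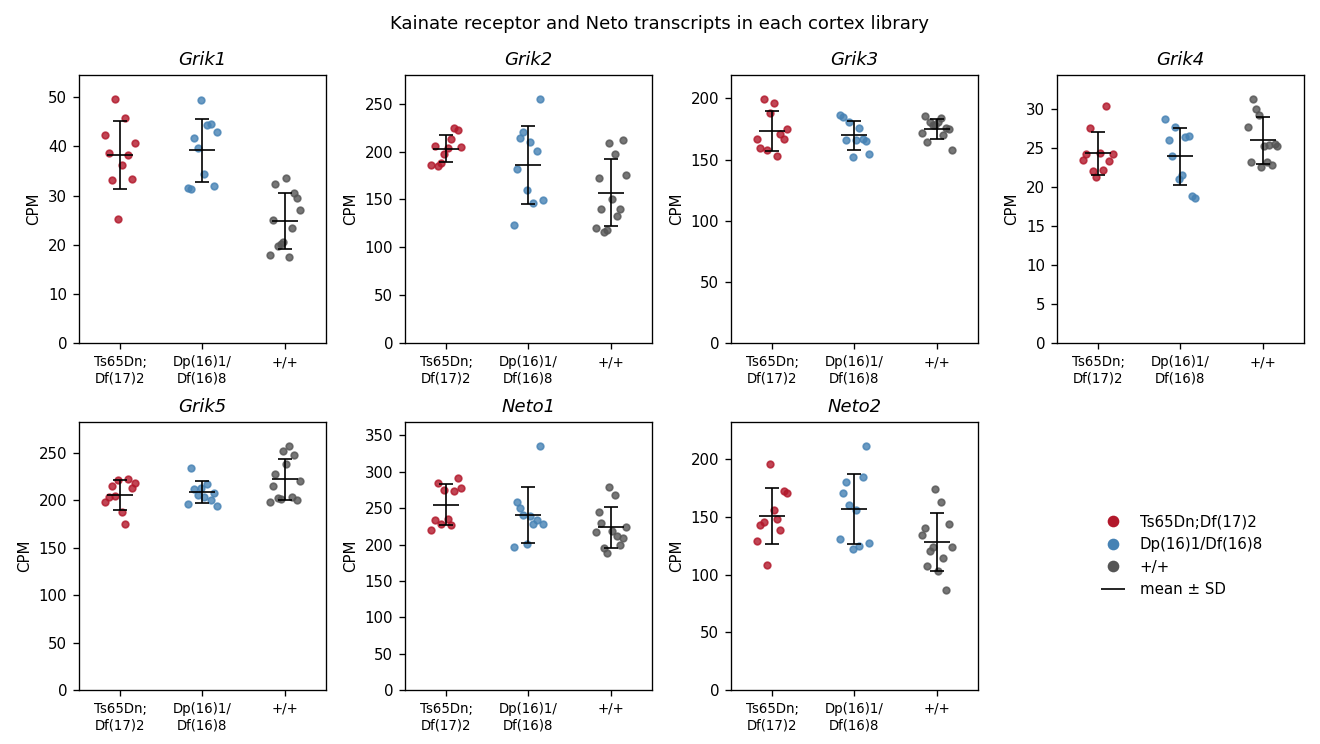
CPM of each of the 7 genes in each library, with Ts65Dn;Df(17)2 at the left (n = 10), Dp(16)1/Df(16)8 in the middle (n = 10) and +/+ at the right (n = 12), and with the mean and SD in black. Grik1 of 7 of 10 libraries in each aneuploid genotype lies above the highest +/+ library, Grik2 of Ts65Dn;Df(17)2 libraries gathers at 185 to 225 CPM, and Grik3 lies at 152.0 to 199 CPM in all groups.

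Grik2, on chromosome 10, was higher in Ts65Dn;Df(17)2 mice by a margin near the threshold. Its product GluK2 is a main pore-forming subunit of kainate receptors in the brain. Grik2 (ENSMUSG00000056073.16, chr10:49094833-49788766, minus strand) had 185 CPM at lowest, 204 at the median and 225 at highest in Ts65Dn;Df(17)2, and 124, 192 and 255 CPM in Dp(16)1/Df(16)8. In +/+ mice it had 116, 145 and 213 CPM. All 10 Ts65Dn;Df(17)2 libraries lay above the +/+ mean and 3 above the highest +/+ library, while the lowest Dp(16)1/Df(16)8 library lay near the bottom of the +/+ range. The spread differed as well, with a coefficient of variation of 7.01% in Ts65Dn;Df(17)2 mice, 21.9% in Dp(16)1/Df(16)8 and 22.5% in +/+ mice.

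Grik2 averaged 203 ± 14.2 CPM in Ts65Dn;Df(17)2 and 157 ± 35.3 CPM in +/+ mice (SD, n = 10 and 12). The fold was 1.29 (95% interval 1.11 to 1.5), with an adjusted p of 0.0467 in the Benjamini-Hochberg adjusted edgeR test. In Dp(16)1/Df(16)8, at 186 ± 40.7 CPM (SD, n = 10), the fold over +/+ mice was 1.19 (1.02 to 1.38) and the adjusted p 0.334. The fold between Ts65Dn;Df(17)2 and Dp(16)1/Df(16)8 was 1.09 (0.931 to 1.28), so the difference between the genotypes themselves did not pass the test. Grik1 and Grik2 were thus the 2 of 7 genes past the threshold in Ts65Dn;Df(17)2, beside 3.97% of all tested genes, and Grik1 was the 1 of 7 in Dp(16)1/Df(16)8, beside 0.573%. Grik1 is the member with 3 copies. Of the members with 2 copies, only Grik2 passed in Ts65Dn;Df(17)2 and none in Dp(16)1/Df(16)8. The shares of all tested genes include the genes of the segment in 3 copies.

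The call for Grik2 depended on single libraries. It passed in 12 of the 32 fits that each left out 1 library, with adjusted p from 0.0136 to 0.0858, and the log2 fold change stayed between 0.34 and 0.429. Without the library whose sex label goes against its counts it was 0.369 with an adjusted p of 0.0514, while Grik1 without that library was 0.626 in Ts65Dn;Df(17)2 (adjusted p 0.00157) and 0.688 in Dp(16)1/Df(16)8 (adjusted p 0.000724), all by edgeR.

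Grik3, which encodes a subunit of low glutamate affinity, differed little between the group means. Grik3 (ENSMUSG00000001985.9, chr4:125490700-125714173, plus strand) averaged 173 ± 16.1 CPM in Ts65Dn;Df(17)2, 169.8 ± 11.8 CPM in Dp(16)1/Df(16)8 and 175 ± 8.18 CPM in +/+ mice (SD). Its lowest, median and highest levels were 153, 169 and 199 CPM in Ts65Dn;Df(17)2, 152, 166 and 186 CPM in Dp(16)1/Df(16)8, and 158, 177 and 186 CPM in +/+ mice. The folds over +/+ mice were 0.99 (0.93 to 1.05) and 0.97 (0.911 to 1.03). These intervals leave out a change of the size seen for Grik1 in either direction.

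Grik4 and Grik5, the high-affinity subunit genes, had fold estimates a little under 1 in both aneuploid genotypes, and none passed the test. Grik4 (ENSMUSG00000032017.14, chr9:42518135-42944493, minus strand) had 21.3, 23.8 and 30.3 CPM at lowest, median and highest in Ts65Dn;Df(17)2, 18.6, 25 and 28.7 CPM in Dp(16)1/Df(16)8, and 22.6, 25.3 and 31.2 CPM in +/+ mice. Its folds over +/+ mice were 0.937 (0.843 to 1.04) and 0.923 (0.83 to 1.03). The 3 groups overlapped over most of their ranges.

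Grik5 (ENSMUSG00000003378.9, chr7:25009849-25072346, minus strand) had 175, 209 and 222 CPM in Ts65Dn;Df(17)2, 194, 207 and 234 CPM in Dp(16)1/Df(16)8, and 198, 218 and 257 CPM in +/+ mice. In each aneuploid genotype, 1 of 10 libraries lay above the +/+ mean. The fold was 0.927 (0.863 to 0.994) in Ts65Dn;Df(17)2, with an unadjusted p of 0.0358 and an adjusted p of 0.193 by edgeR. It was 0.938 (0.874 to 1.01) in Dp(16)1/Df(16)8, with an adjusted p of 0.441.

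The Neto genes were higher on average in both aneuploid genotypes without passing the test. Neto1 (ENSMUSG00000050321.3, chr18:86394952-86506718, plus strand) had 220.0, 255 and 292 CPM at lowest, median and highest in Ts65Dn;Df(17)2, 197, 237 and 336 CPM in Dp(16)1/Df(16)8, and 189, 218 and 279 CPM in +/+ mice. The fold was 1.14 (1.02 to 1.27) in Ts65Dn;Df(17)2, with 9 of 10 libraries above the +/+ mean and an adjusted p of 0.149 by edgeR. In Dp(16)1/Df(16)8 it was 1.08 (0.965 to 1.2), with an adjusted p of 0.572.

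Neto2 (ENSMUSG00000036902.11, chr8:85636588-85700924, minus strand) had 108, 147 and 196 CPM in Ts65Dn;Df(17)2, 122, 158 and 212 CPM in Dp(16)1/Df(16)8, and 86.7, 124 and 175 CPM in +/+ mice. The ranges overlapped widely. The folds over +/+ mice were 1.18 (1.01 to 1.38) and 1.22 (1.05 to 1.43), with adjusted p of 0.205 in Ts65Dn;Df(17)2 and 0.271 in Dp(16)1/Df(16)8 by edgeR. The ratio of Neto2 to Neto1 RPKM averaged 0.808 ± 0.103 in Ts65Dn;Df(17)2 mice, 0.886 ± 0.0982 in Dp(16)1/Df(16)8 and 0.779 ± 0.109 in +/+ mice (SD).

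Between Ts65Dn;Df(17)2 and Dp(16)1/Df(16)8 none of the 7 genes passed edgeR's test, none had an unadjusted p under 0.05, and limma and DESeq2 also called 0 of them. The fold estimates ran from 0.962 for Neto2 (0.818 to 1.13) to 1.09 for Grik2. The intervals of Grik3 (0.956 to 1.09), Grik5 (0.917 to 1.06) and Grik4 (0.908 to 1.13) were the narrowest.

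The make-up of the receptor mRNA differed between the group means, with a larger share of Grik1 and a smaller share of Grik5 in both aneuploid genotypes. Taking the summed RPKM of Grik1 to Grik5 as the whole, Grik1 made up 6.80 ± 1.42% in Ts65Dn;Df(17)2 mice, 7.03 ± 1.28% in Dp(16)1/Df(16)8 and 4.48 ± 0.958% in +/+ mice (SD). Grik5 made up 47.2 ± 1.98%, 48.5 ± 1.91% and 52.1 ± 2.17% in the same order of genotypes. Grik2 made up 18.2%, 16.8% and 14.3%, Grik3 22.9%, 22.8% and 23.8%, and Grik4 4.83%, 4.83% and 5.33%. The sum itself was 84.2 ± 3.6 RPKM in Ts65Dn;Df(17)2 mice, 83.1 ± 4.11 in Dp(16)1/Df(16)8 and 82.4 ± 6.02 in +/+ mice. A ratio of Grik1 to Grik5 RPKM of 0.145 ± 0.0334 in Ts65Dn;Df(17)2 and 0.145 ± 0.0252 in Dp(16)1/Df(16)8 stood against 0.0862 ± 0.0192 in +/+ mice. Shares depend on one another and on the annotated exon lengths, and mRNA shares are not receptor shares.

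Grik2, Neto1 and Neto2 rose with the striatal score, and the slope of Grik1 did not pass the test. The score averaged 6.61 ± 0.622 in Ts65Dn;Df(17)2 mice, 6.06 ± 1.34 in Dp(16)1/Df(16)8 and 5.35 ± 1.46 in +/+ mice (SD, log2 CPM). None of the 15 markers passed the test in either comparison, although the estimate of all 15 was positive in both. Over all tested genes, 27% passed the edgeR test of a slope on the score in a fit with genotype and sex, and 3 of the 7 members did. Grik2 rose by 0.19 ± 0.018 log2 units per unit of score (SE, adjusted p 4.78e-10), Neto2 by 0.16 ± 0.028 (adjusted p 3.68e-05) and Neto1 by 0.11 ± 0.02 (adjusted p 0.000147).

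The slopes of the others were 0.04 for Grik5 (adjusted p 0.0506 by edgeR), 0.01 for Grik3, -0.03 for Grik4 and -0.06 for Grik1 (adjusted p 0.296). Within the 12 +/+ libraries alone, Grik2 (0.205), Neto2 (0.16) and Neto1 (0.11) passed again, with edgeR adjusted p of 0.000122, 0.00872 and 0.00273. They also passed within the 10 Dp(16)1/Df(16)8 libraries, with slopes of 0.21, 0.18 and 0.11. Within the 10 Ts65Dn;Df(17)2 libraries, where the score ran only from 5.26 to 7.27, none of the members passed edgeR's test, while Neto2 (0.30) and Grik1 (-0.32) had unadjusted p of 0.00285 and 0.00946. The slope of Grik2 there was 0.067 ± 0.042 (SE, unadjusted p 0.131 by edgeR), lower than in the other genotypes.

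**Figure D3:**
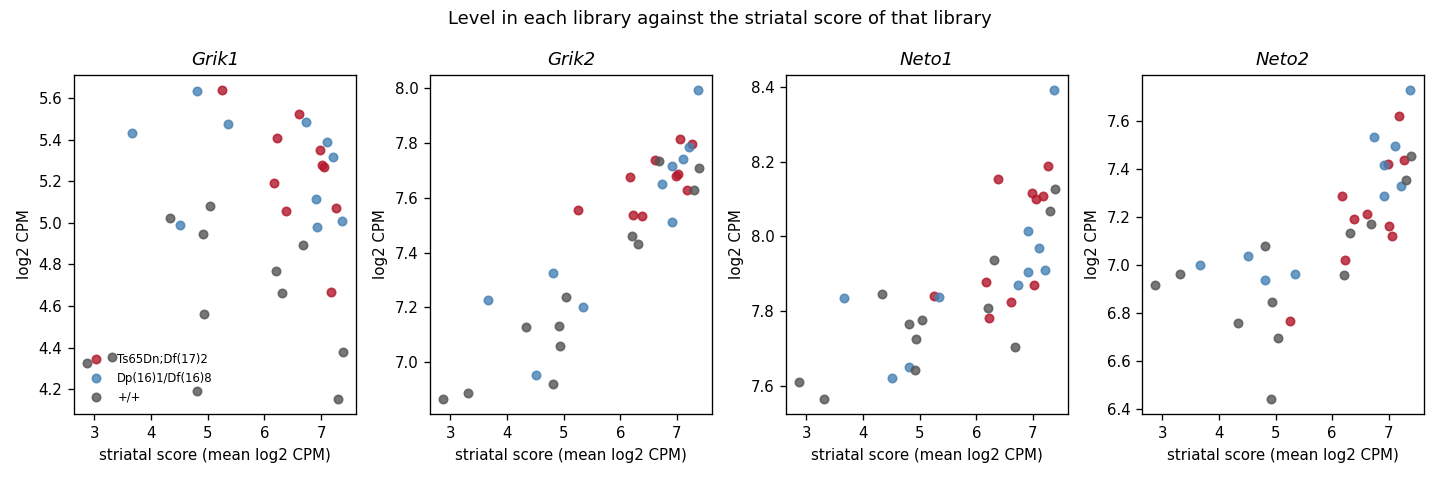
Log2 CPM of Grik1, Grik2, Neto1 and Neto2 in each library against the striatal score (mean log2 CPM of 15 markers), with Ts65Dn;Df(17)2 libraries in red, Dp(16)1/Df(16)8 libraries in blue and +/+ libraries in grey. Grik2 climbs with the score in all groups together, with a slope of 0.19 per unit, while Grik1 has a slope of -0.06 and its +/+ libraries lie mostly below the aneuploid ones.

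With the score as a further term, the estimate of Grik1 stayed high and that of Grik2 was lower. The log2 fold change of Grik1 was 0.70 ± 0.12 (SE) in Ts65Dn;Df(17)2 and also 0.70 ± 0.12 in Dp(16)1/Df(16)8, and both passed edgeR's test. That of Grik2 in Ts65Dn;Df(17)2 was 0.15 ± 0.06 with an adjusted p of 0.224, in a fit in which 0.948% of all genes passed, against 0.37 ± 0.11 without the term. Those of Neto2 and Neto1 in Ts65Dn;Df(17)2 were 0.04 and 0.06, against 0.235 and 0.185 without it, and that of Grik5 was -0.164 (unadjusted p 0.00253, adjusted p 0.137 by edgeR), against -0.11. In Dp(16)1/Df(16)8, Neto2 stood at 0.174 ± 0.08 with the score (unadjusted p 0.0369, adjusted p 0.437 by edgeR), against 0.291 without it. Grik2 there stood at 0.108 with the score, against 0.246, and Neto1 at 0.03, against 0.105. These fits take 1 slope on the score for all genotypes, while the slope of Grik2 was lower within Ts65Dn;Df(17)2. The part of the striatal score in the difference of Grik2 between genotypes was not tested beyond these fits.

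**Figure D4:**
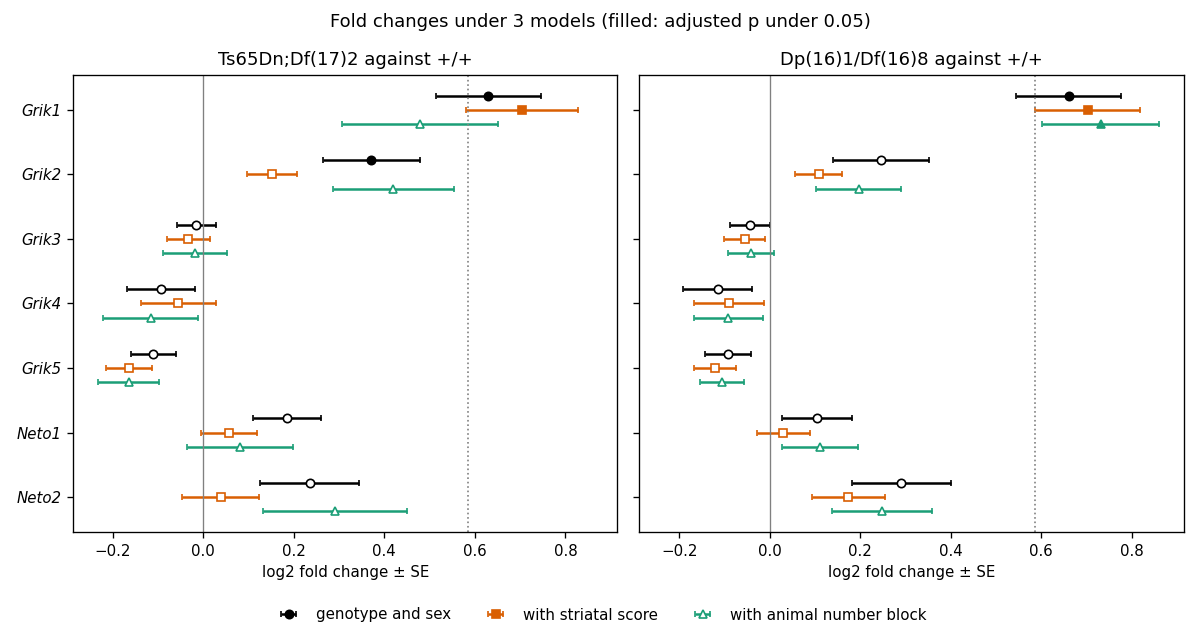
Log2 fold change ± SE of each gene in Ts65Dn;Df(17)2 (left panel) and Dp(16)1/Df(16)8 (right panel) against +/+ mice, in models with genotype and sex, with the striatal score added, and with the animal number block added. Filled symbols passed the threshold and the dotted line marks a fold of 1.5, near which Grik1 lies in all models, from 0.479 to 0.731.

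Markers of other neurons were measured in the same way. The summed level of 12 markers of excitatory cortical neurons was 1085 to 2166 CPM in Ts65Dn;Df(17)2, 1014 to 2998 in Dp(16)1/Df(16)8 and 1165 to 3126 in +/+ mice, and 6 of the 12 fell in Ts65Dn;Df(17)2 by the edgeR test while 0 rose, beside 3.97% of all tested genes in either direction. Of these 12, 0 had a positive estimate in either aneuploid genotype, and none passed in Dp(16)1/Df(16)8. The 12 markers of interneurons, where GluK1 is best known, summed to 916 to 1480 CPM in Ts65Dn;Df(17)2, 689.5 to 1478 in Dp(16)1/Df(16)8 and 689 to 1385 in +/+ mice, and 1 of the 12 rose in Ts65Dn;Df(17)2. This was Gad1, which encodes an enzyme of GABA synthesis that striatal projection neurons also express, and it was named after its value was seen. The 8 astrocyte markers summed to 1597 to 1836 CPM in Ts65Dn;Df(17)2, 1641 to 1850 in Dp(16)1/Df(16)8 and 1665 to 2038 in +/+ mice. Of these 8, Fgfr3, Aldoc and Clu fell in Ts65Dn;Df(17)2 (3 of 8) and Clu in Dp(16)1/Df(16)8 (1 of 8, beside 0.573% of all tested genes), named after their values were seen. In each comparison 0 of the 8 rose by the test. The list did not move in 1 direction, as 4 of the 8 had a positive estimate in Ts65Dn;Df(17)2 and 2 of the 8 in Dp(16)1/Df(16)8. The part of these lists in the members' values was not tested.

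Among themselves, Grik2, Neto1 and Neto2 varied together once genotype and sex were removed, and Grik1 varied against Neto2. Over the 32 libraries, residual log2 CPM of Neto1 and Neto2 correlated with r = 0.717, Grik2 with Neto2 at r = 0.671 and Grik2 with Neto1 at r = 0.661. Grik1 had r = -0.626 with Neto2, -0.493 to Grik3 and -0.436 to Neto1. Removing the striatal score as well brought Grik2 with Neto2 to r = 0.09 and left Grik1 with Neto2 at r = -0.67. These values are descriptions over libraries that differ in striatal score and in total counts.

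**Figure D5:**
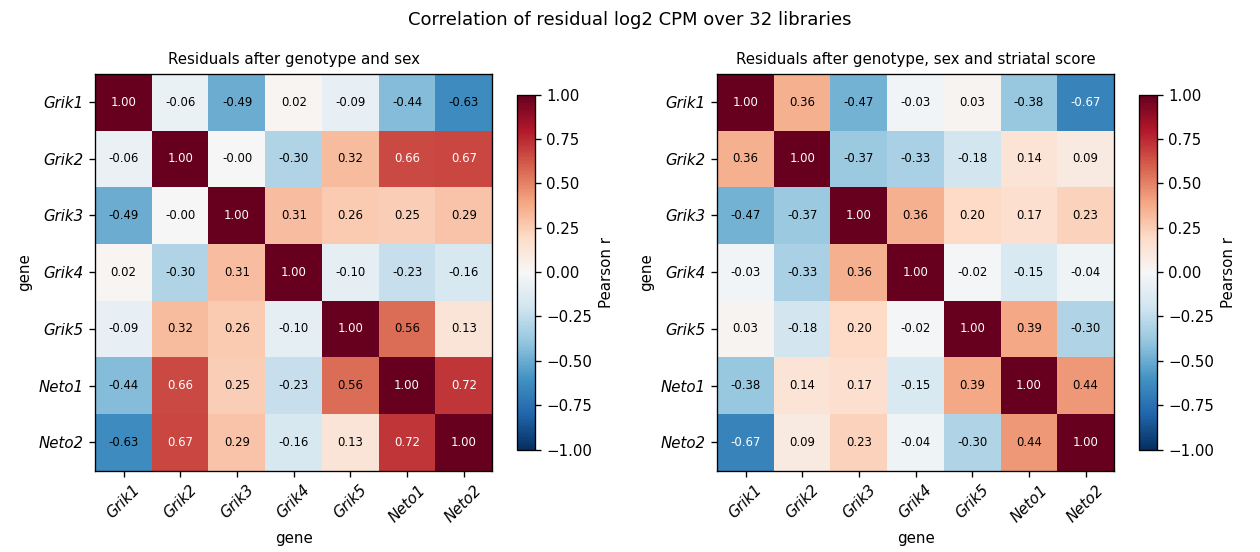
Pearson r between residual log2 CPM of the 7 genes over 32 libraries, after genotype and sex (left) and after genotype, sex and striatal score (right), from blue at -1 to red at 1. The block of Grik2, Neto1 and Neto2 at r of 0.66 to 0.72 on the left is pale for Grik2 on the right, and Grik1 with Neto2 stays blue in both.

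For each member, the 3 genes outside the family with the most similar residuals were listed. Closest to Grik1 were Cd200 (r = 0.901), which encodes a surface ligand of a microglial inhibitory receptor, and the protocadherin genes Pcdh8 (0.888) and Pcdh19 (0.886). Cd200 lies on chromosome 16 as well, at a position not given here. The residuals have the genotype means removed, so this r holds no difference between the genotype means. After removal of the score they were Esr1 (0.909), the oestrogen receptor alpha gene, Cd200 (0.897) and the NMDA receptor subunit gene Grin3a (0.895), so that 1 of 3 was shared. Closest to Grik2 were the ryanodine receptor gene Ryr3 (0.958), Plppr1 (0.948) and Klhl13 (0.947), and 0 of 3 was shared after removal of the score.

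Closest to Neto2 were Elmod1 (0.922), the potassium channel gene Kcnd2 (0.895) and the kinase gene Pdpk1 (0.894). Closest to Neto1 were the kinase gene Slk (0.878), the cannabinoid receptor gene Cnr1 (0.874) and Anks1b (0.862). Closest to Grik5 were Agap2 (0.88), the inward rectifier channel gene Kcnj4 (0.858) and the cholesterol hydroxylase gene Cyp46a1 (0.834). Grik3 and Grik4 had lower values, with highest r of 0.708 to Mta2, 0.687 to Mrpl4 and 0.682 to Prss12 for Grik3, and 0.692 to Zfp30, 0.64 to Tspan17 and 0.622 to Ppip5k1 for Grik4. With the score removed as well, the highest r was 0.78 for Grik3 (Prss12) and 0.694 for Grik4 (Zfp30), beside 0.789 for Neto1 (Ccng2). After that removal, 0 of the 3 closest genes was shared for Neto1, 1 of 3 for each of Neto2, Grik5 and Grik3, and 2 of 3 for Grik4.

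Genes around the receptors were counted in the same fit. Of 23 genes for scaffolds, trafficking and modification of kainate receptors, 22 were tested and 1 rose in Ts65Dn;Df(17)2, beside 3.97% of all tested genes. This was Grip1, a PDZ scaffold that binds AMPA and kainate receptor subunits, at 41.7 ± 4.10 CPM in Ts65Dn;Df(17)2 and 35.0 ± 4.43 CPM in +/+ mice, a log2 fold change of 0.26 ± 0.063 (SE, adjusted p 0.0217 by edgeR). The median of the 22 was -0.01, against 0.005 over all tested genes, and the range was -0.31 to 0.26.

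Of 13 genes of AMPA, NMDA and delta receptors, 12 were tested and 1 rose in Ts65Dn;Df(17)2, again beside 3.97% of all tested genes, with a list median of -0.04. Gria1, an AMPA receptor subunit gene, had 605 ± 55.7 CPM in Ts65Dn;Df(17)2 and 480.3 ± 87.9 CPM in +/+ mice, a log2 fold change of 0.34 ± 0.086 (adjusted p 0.0265 by edgeR). Of the 12 auxiliary subunit genes of AMPA receptors, 1 rose in Ts65Dn;Df(17)2, beside the same 3.97%, with a list median of -0.03. Cacng5, a member of the TARP family, had 28.8 ± 6.97 CPM in Ts65Dn;Df(17)2 and 16.3 ± 8.92 CPM in +/+ mice, a log2 fold change of 0.83 ± 0.25 (adjusted p 0.0494). Leaving out 1 library at a time gave 1 to 2, 0 to 3 and 0 to 2 calls in the 3 lists. DESeq2 called 2, 3 and 1 of their genes in Ts65Dn;Df(17)2 against +/+ mice and limma 1 in each, while 3, 4 and 4 had an unadjusted p under 0.05 in edgeR. Counts this small against the share of all tested genes say nothing particular about the lists.

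In Dp(16)1/Df(16)8 against +/+ mice, none of the tested genes of these 3 lists passed edgeR's test and limma and DESeq2 called 0. At an unadjusted p under 0.05 there were 2, 2 and 0 in the 3 lists. Between Ts65Dn;Df(17)2 and Dp(16)1/Df(16)8 all 3 tools called 0, and 0 had an unadjusted p under 0.05. On the striatal score, 4 of the 22 scaffold and trafficking genes rose and 5 fell, 4 of the 12 other receptor genes rose and 4 fell, and 6 of the 12 AMPA auxiliary genes rose and 3 fell, beside 27% of all tested genes in either direction.

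No difference by sex was detected in these genes. None of the 7 differed between libraries labelled male and female by the edgeR test, with a smallest adjusted p of 0.575, for Grik2. That test kept the library whose sex label goes against its counts as female, and the difference by sex was not tested without it. In the test of genotype by sex, 0 of the 7 and 0.0% of all tested genes passed, while 677 of 16042 genes and 0 of the 7 had an unadjusted p under 0.05. Without the library whose sex label goes against its counts, 0 of 16080 passed again.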

How the data were processed

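The authors deposited raw counts per gene, whole numbers with no normalization, for 55401 genes in 32 libraries. RNA was extracted with miRNeasy and depleted with RiboErase, per the labels' protocols. The submitters' processing notes name STAR 2.7.9a, Subread 1.6.4 with featureCounts, bcl2fastq 2.20, and the builds GRCm38.p6 and GRCh38. Which build served which step, whether counting used strand, and the annotation release are not given in the sources used here. Genes were filtered by filterByExpr, which kept 16042 with 99.7% of counts. They were fitted in edgeR 4.0.16 (R 4.3.3) with TMM scaling, genotype and sex over 32 libraries, by the quasi-likelihood test, with Benjamini-Hochberg adjustment over all tested genes and a threshold of 0.05. Intervals at 95% came from the log2 fold change and its SE. RPKM used union exon lengths of GENCODE M21. Log2 CPM had a prior count of 2. The members and lists were chosen with earlier results of these data known. Named genes were the members, list genes past the threshold (up to 4 per list and comparison), the 3 genes most like each member and the 2 nearest tested genes on each side of Grik1. Grin1, named as a level for scale, was chosen after its values were seen. In data simulated for Ts65Dn;Df(17)2 against +/+ over 15918 genes, 74.7% of 99 genes changed 1.5-fold were recovered. Alternatives were limma 3.58.1, DESeq2 1.42.0, other scaling, filters and terms, and leaving out each library.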

Additional observations from a re-analysis of the deposited data

Results flagged for a closer look

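Neto1 in Dp(16)1/Df(16)8 replicate 9 stood at 335.5 CPM, far from the other 9 libraries of that genotype, whose highest was 258.6 CPM. In 14 groups of 10 libraries tested this way for a lone extreme value, it was the only such value, and chance gives about 1 in 20 groups. The library had 2089 counts of Neto1 and a striatal score of 7.37, the highest of its genotype. Without it, the log2 fold change of Neto1 in Dp(16)1/Df(16)8 against +/+ mice was 0.044 (adjusted p 0.847 by edgeR), against 0.105 with it. What sets this library apart was not tested.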

How the results depend on the processing

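Grik1 against +/+ mice passed in all 32 fits that left out 1 library, with log2 fold changes of 0.571 to 0.678 in Ts65Dn;Df(17)2 and 0.608 to 0.711 in Dp(16)1/Df(16)8. In Ts65Dn;Df(17)2 it passed in 8 of 9 other settings, the exception being the animal number block as a term (0.479). For Grik2 in Ts65Dn;Df(17)2, the log2 fold change no longer passed without the filter on low counts (0.371), without the sex term (0.369), without the mice numbered below 30000 (0.369), with the block (0.42) and with the striatal score (0.151), and it ran from 0.34 to 0.429 when 1 library was left out. The call was lost without any of +/+ replicates 1, 3, 4, 5, 7, 9 and 10, Ts65Dn;Df(17)2 replicates 1 to 9 or Dp(16)1/Df(16)8 replicates 2, 5, 6 and 8. The number of family genes past the threshold in Ts65Dn;Df(17)2 was 2, and it was 1 without the filter, without the sex term, with the score or without mice below 30000, 0 with the block, and 1 to 2 when 1 library was left out. Within Ts65Dn;Df(17)2 alone 0 genes had a slope on the score past the threshold, against 3 in all libraries and the same 3 within the 10 libraries of Dp(16)1/Df(16)8. The cause of these changes was not tested.

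Estimates near 0 changed sign without passing anywhere. In Ts65Dn;Df(17)2 against Dp(16)1/Df(16)8 they were Neto2 (0.041), Grik4 (-0.024) and Neto1 (-0.03) with the block, and Grik1 (0.001) with the score. Leaving out 1 library moved Grik1 over -0.091 to 0.022, Grik4 over -0.024 to 0.047 and Grik5 over -0.032 to 0.006 there, and Grik3 in Ts65Dn;Df(17)2 against +/+ mice over -0.039 to 0.002. The slope of Grik4 was 0.027 within Ts65Dn;Df(17)2 and 0.02 within Dp(16)1/Df(16)8, against -0.03 in all.

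The labels give no replicate numbers by which to pair mice, and the animal number block, as cut here, is the nearest fit to a paired one. Grik1 and Grik4 rest on the fewest counts of the family, 8270 and 6086 in all.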
